A study of Rattus norvegicus with 20 samples.

Results

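The nuclear receptors described here are 37 genes, among them the 3 PPARs (peroxisome proliferator-activated receptors), the RXRs, the receptors for retinoids, thyroid hormone, vitamin D and mineralocorticoids, the xenobiotic receptors, the clock receptors and a group of orphan receptors. They were taken by name: a non-control probe belonged to the group when the gene name given for it by the array files was one of the 37, whatever its case and without the suffix for predicted genes. By that rule 33 of the 37 had a probe, 41 probes of 41012 on the array, and 24 of the 33 could be tested, out of 24273 genes tested in all. Rarg, Nr2c1, Nr2e1 and Nr2e3 had no probe by the rule and were not analysed here.

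The arrays profiled testes of male Han Wistar rat foetuses whose dams were gavaged daily from gestation day 12 to 19. Control dams received the corn oil vehicle, and the other dams received 500 mg/kg of DEHP (di(2-ethylhexyl) phthalate), MEHP (its monoester), TOTM or EHO. TOTM is tris(2-ethylhexyl) trimellitate, and the labels do not expand EHO. Each group had 4 arrays, and each array held RNA pooled from at least 6 testes of at least 3 pups of a litter. The series title puts the question as the effect of TOTM on gene expression tied to maldevelopment of the testis. Doses were equal by mass, so the molar doses differed. MEHP arrays 1 and 2 differed by less than the noise between repeated spots (0.790 times it, against a median of 2.32 for pairs within a group) and entered every fit as their mean. MEHP thus has n = 3, and the other groups have n = 4.

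Nuclear receptors are transcription factors that a small lipophilic ligand can switch between repressing and activating their target genes. Many of them bind DNA as a partner of RXR at repeats of the hexamer AGGTCA, while others bind a single copy of it alone. PPAR alpha drives fatty acid oxidation in liver and is activated there by phthalate monoesters, and in the foetal testis orphan receptors and steroidogenic regulators take part in the control of Leydig cell genes.

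The promoters of 3 receptors are shown because their genes differed between EHO and control, Nr1d2 and Nr6a1 downward and Nr2f6 upward, and because they differ in the motifs they carry. RefSeq sequences of GRCr8 were matched by symbol for 32 of the 37 genes, in 300-base windows from 250 bases before the start of the gene. Capitals mark AGGTCA in Nr1d2 and the cyclic AMP response element TGACGTCA in Nr6a1.
Nr1d2: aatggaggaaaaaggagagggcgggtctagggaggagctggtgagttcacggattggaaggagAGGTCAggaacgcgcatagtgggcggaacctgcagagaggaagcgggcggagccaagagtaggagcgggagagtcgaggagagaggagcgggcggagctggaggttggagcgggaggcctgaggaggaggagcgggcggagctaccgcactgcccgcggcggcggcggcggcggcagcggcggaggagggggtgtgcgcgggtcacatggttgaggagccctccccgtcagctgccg
Nr6a1: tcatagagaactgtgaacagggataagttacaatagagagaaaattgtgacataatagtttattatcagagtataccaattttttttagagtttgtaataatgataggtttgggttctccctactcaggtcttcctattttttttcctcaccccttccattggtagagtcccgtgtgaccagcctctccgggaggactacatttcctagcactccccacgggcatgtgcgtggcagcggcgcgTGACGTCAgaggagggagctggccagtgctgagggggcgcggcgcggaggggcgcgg
Nr2f6: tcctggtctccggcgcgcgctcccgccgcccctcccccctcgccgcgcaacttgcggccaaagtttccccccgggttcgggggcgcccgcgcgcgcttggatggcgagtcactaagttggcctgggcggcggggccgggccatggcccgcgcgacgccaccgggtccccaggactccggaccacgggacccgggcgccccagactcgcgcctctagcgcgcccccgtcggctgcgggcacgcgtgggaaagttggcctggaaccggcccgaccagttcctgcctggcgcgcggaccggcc
The window of Nr1d2 lies at chr15:9954784-9955083 on the plus strand, that of Nr6a1 at chr3:43092788-43093087 on the minus strand and that of Nr2f6 at chr16:18087400-18087699 on the minus strand. Both strands were searched for AGGTCA, for TGACGTCA and for CACGTG, the E-box. The hexamer AGGTCA was present in 16.2% of all 33469 promoters and in those of 4 of the 32 receptors (Esrrg, Nr1d2, Nr5a2 and Rarg). TGACGTCA was present in 1.83% of promoters, among receptors in Nr2e1 and Nr6a1, and CACGTG in 6.42%, among receptors in Nr0b2 and Nr1d1. Nr2f6 held no copy of any of these letters in its window.

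Levels are log2 processed signals after subtraction of each array's 75th percentile, with SD over samples, and differences are log2 with their standard error (SE). The words rose and fell are kept for genes with a limma adjusted p under 0.05 over all genes. The share of spots well above background was 46.1% and 50.4% on EHO arrays 1 and 2, the dimmest of the 20, and 62.5% to 79.8% on the rest. Slide and scan changed with the group, so their effects and that of a compound cannot be told apart. MEHP 3 lay nearer to control 2 (1.29 times spot noise) and MEHP 4 to DEHP 3 (1.38 times) than to any array of their own group. With control 2 and MEHP 3 left out the number of receptors that passed stayed at 0 for DEHP, MEHP and TOTM and went from 7 to 6 for EHO, where Nr1d2 missed the threshold (limma adjusted p = 0.0505). The p-values measure the spread between litter pools. The defining markers of a foetal testis were present: 14 of 14 Sertoli cell genes and 11 of 13 gonocyte genes of the lists used could be tested, and 11 of 12 Leydig cell genes.

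Of the 24 receptors tested, 12 were well above background on all 20 arrays: Rxrb, Rxrg, Rara, Thra, Nr1d1, Nr1h2, Nr1h3, Nr2f1, Nr2f6, Esrra, Nr5a2 and Nr0b2. The other 12 were dim on some arrays. A further 9 receptors had a probe but were not well above background on every array of any group, and they were not tested. Pparg, the PPAR of fat cells, was not well above background on any array, nor were Nr1h4 (the bile acid receptor), Rorb, Hnf4g, Nr2c2 and Nr4a3. Ppard, the most widely expressed PPAR, was well above background on 9 arrays: 3 control, 3 DEHP, 1 MEHP, 2 TOTM and 0 EHO. Vdr, the vitamin D receptor, was detected on 2 arrays, both of control, and Nr4a2, an immediate early receptor, on 6. Of the 3 PPARs, then, only Ppara could be compared between groups.

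**Figure D1:**
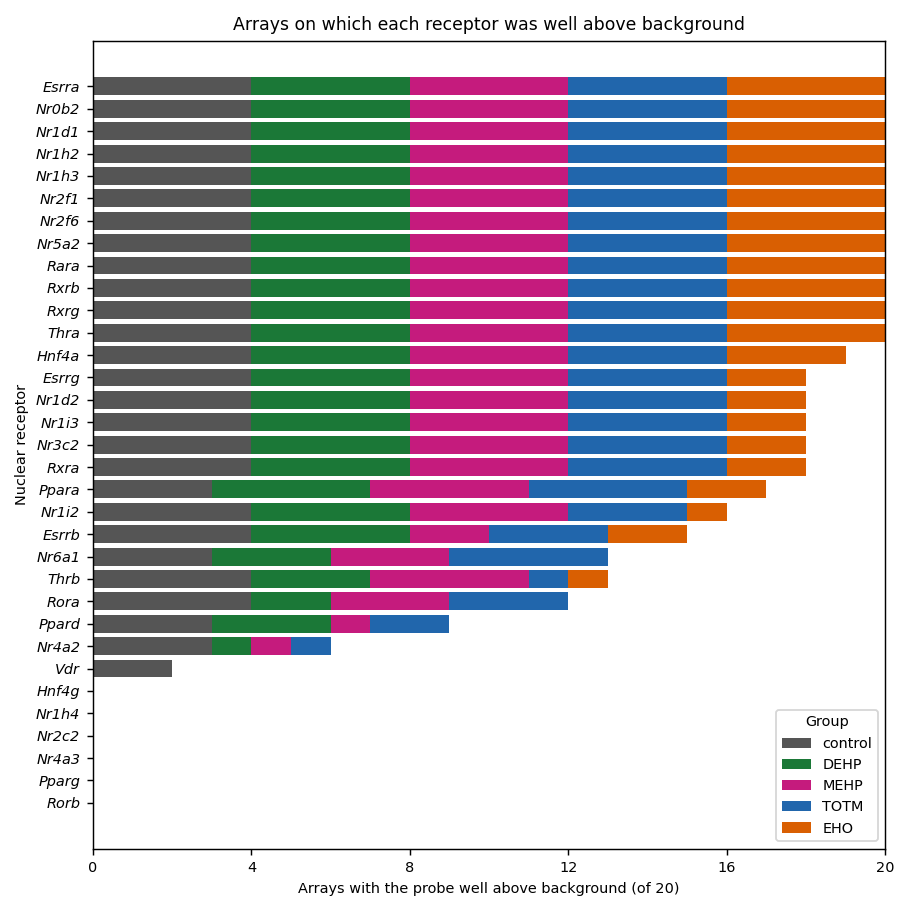
Number of arrays, of 20, on which each of the 33 receptors with a probe was well above background, stacked by group (best probe of each gene). The bars of 12 receptors reach 20 arrays, 6 receptors have no bar, and Rora, Nr6a1, Ppard, Nr4a2 and Vdr have no EHO segment.

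No receptor rose or fell with DEHP, MEHP or TOTM, and 7 did with EHO. For EHO, 7 of the 24 receptors passed, 2 higher (Nr2f6 and Nr2f1) and 5 lower (Rora, Rxrg, Nr3c2, Nr1d2 and Nr6a1), where 24.8% of all 23953 genes passed (6.46% higher and 18.3% lower). That share of receptors is near the background. With DEHP 0 of 24 passed limma against 0.00417% of all genes, and 2 receptors (Nr2f6 and Rxrg) had an unadjusted p under 0.05 (1 higher and 1 lower), against 2.47% of genes (1.03% higher and 1.44% lower). With MEHP 0 of 24 passed against 0.964% of genes, and 2 (Rxra and Hnf4a, both lower) had an unadjusted p under 0.05, against 5.32% (3.45% higher and 1.87% lower). With TOTM 0 of 24 passed against 0.0209% of genes, and 0 had an unadjusted p under 0.05, against 8.20%. With EHO 14 of 24 had an unadjusted p under 0.05, 2 higher and 12 lower, against 45.6% of genes (11.1% higher and 34.4% lower). No member passed with DEHP or TOTM under any of 39 other settings, and 7 did with MEHP when arrays were weighted.

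The median difference over the 24 receptors was −0.07 with DEHP, −0.19 with MEHP, −0.03 with TOTM and −0.37 with EHO, beside −0.03, −0.06, −0.04 and −0.18 over all genes. The 7 EHO calls did not outlast the removal of single arrays. Without control 1, control 4, EHO 1 or EHO 2 no receptor passed, and without EHO 3 or EHO 4 the number was 13. No share of all genes stands beside these counts, so they are not a result about the receptors in particular. With EHO 1 and 2 both left out 0 receptors passed and 223 of all genes did, and the median over the receptors was −0.08. How arrays were scaled set the median of all genes for EHO, which lay at 0.35 with scaling to the array median and at −0.32 when the percentile was taken over commonly detected probes. The share of calls that were higher was then 68.1% and 11.9%, against 26.1% here. The sign of each of the 7 calls held under all settings tried. Relative to the median of all genes the differences were −0.47 for Rxrg, 0.63 for Nr2f6 and 0.88 for Nr2f1, the 3 called receptors that all EHO arrays measured. Under quantile normalization these values were smaller, at −0.21, 0.35 and 0.59. Of 38 or 39 other settings the call held in 30 for Rora, 29 for Nr3c2, 28 for Rxrg, 26 for Nr2f6, 24 for Nr1d2, 14 for Nr6a1 and 11 for Nr2f1. Among these settings are those without an array of DEHP, MEHP or TOTM. They leave the EHO differences unchanged and act only through the shared variance, so the tallies are not counts of independent checks.

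**Figure D2:**
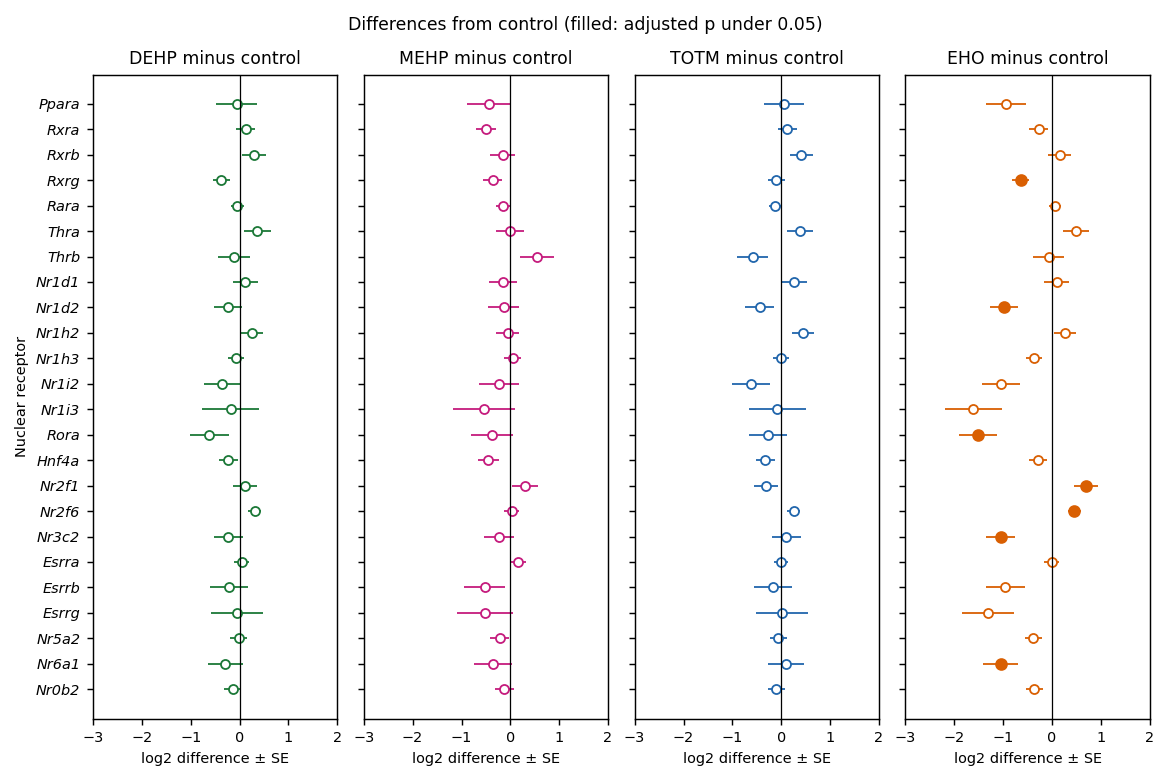
Difference from control (log2, with SE) of each of the 24 receptors tested, in 1 panel per compound; filled points have an adjusted p under 0.05. All filled points, 2 to the right and 5 to the left of 0, lie in the EHO panel, where EHO arrays 1 and 2 are the dimmest of the series.

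**Figure D3:**
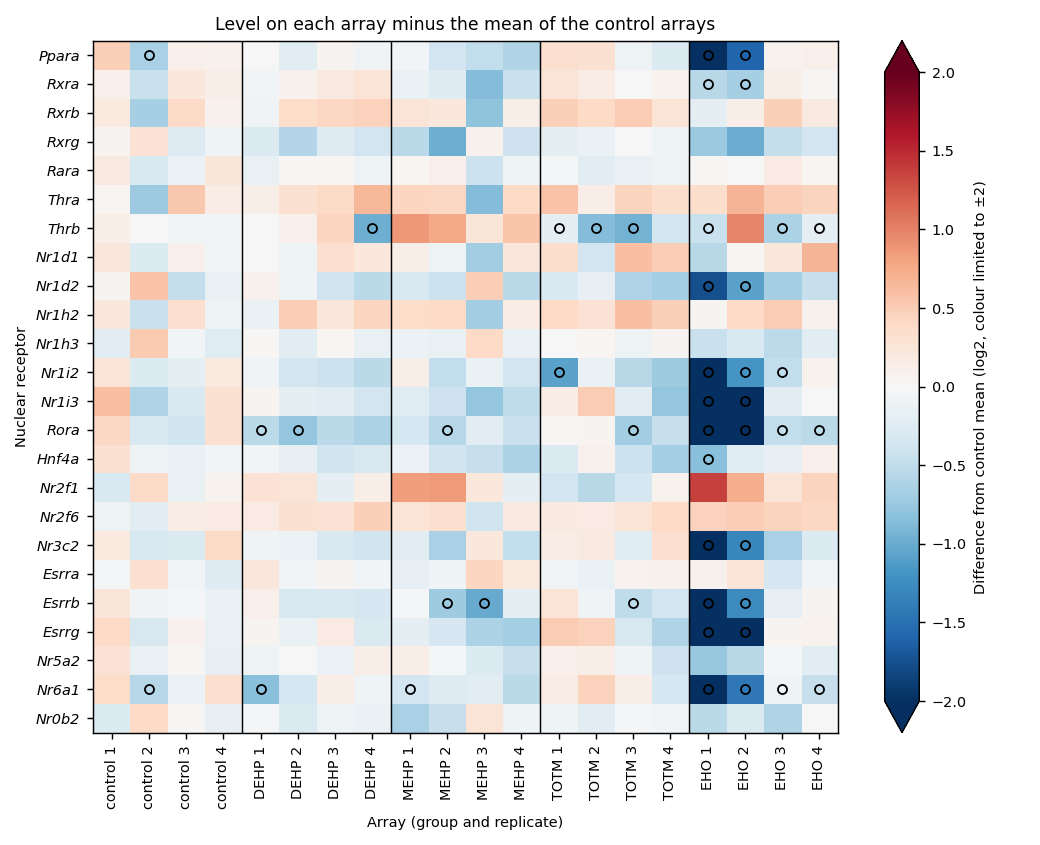
Level of each receptor on each of the 20 arrays minus the mean of the control arrays (log2, colour limited to ±2); circles mark arrays on which the probe was not well above background. The darkest blue cells sit on EHO arrays 1 and 2, most of them under a circle.

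The first group holds the receptors that sense lipids and their RXR partners. Of the 6 tested, Rxrg fell with EHO, and the other 5 did not pass in any comparison with control. Ppara (NM_013196, probe at rn4 chr7:123807016-123807075) read −2.09, −3.21, −2.46 and −2.47 on control arrays 1 to 4 and −2.56, −2.77, −2.50 and −2.63 on those of DEHP. It read −2.61, −2.94, −3.05 and −3.16 with MEHP, −2.24, −2.26, −2.66 and −2.83 with TOTM, and −4.88, −4.14, −2.49 and −2.46 with EHO. The low readings were EHO 1 and 2, where the probe was not well above background, and every other group overlapped with control. Its difference from control was −0.06 ± 0.41 with DEHP, −0.44 ± 0.45 with MEHP, 0.06 ± 0.41 with TOTM and −0.94 ± 0.41 with EHO (limma adjusted p = 0.0890). The 95% intervals were wide: −0.93 to 0.81 for DEHP and −1.38 to 0.51 for MEHP. Without EHO 1 and 2 the EHO difference was 0.08 ± 0.24.

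Rxrg (NM_031765, probe at chr13:83298541-83298600) is an RXR of restricted expression. It read −1.26, −1.02, −1.57 and −1.40 on the control arrays and −2.05, −2.30, −1.78 and −1.69 on the EHO arrays, all 8 well above background. Every EHO array lay below every control array. The group means were −1.31 ± 0.23 and −1.96 ± 0.27 (n = 4 each), a difference of −0.65 ± 0.17 (limma adjusted p = 0.0261; exact permutation p = 0.0286, the smallest that 4 against 4 allow). The second probe of Rxrg gave −0.63 ± 0.21 (adjusted p = 0.0422 over all probes), with 1 of 4 EHO arrays well above background. Without EHO 1 and 2 the difference was −0.43 ± 0.19 and no longer passed. With the other compounds Rxrg stood at −0.38 ± 0.17 for DEHP, −0.37 ± 0.19 for MEHP and −0.10 ± 0.17 for TOTM, none of which passed.

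Rxra, the most general partner of the family, read −2.07, −2.63, −1.96 and −2.05 in control and −2.31, −2.44, −3.04 and −2.63 with MEHP. The 2 groups overlapped only through control 2, and the difference of −0.50 ± 0.21 did not pass (limma adjusted p = 0.734). With DEHP, TOTM and EHO it lay at 0.13 ± 0.19, 0.12 ± 0.19 and −0.28 ± 0.19. Rxrb lay between −0.15 ± 0.26 (MEHP) and 0.41 ± 0.24 (TOTM). Among the LXRs, which sense oxysterols, Nr1h2 lay between −0.05 ± 0.24 (MEHP) and 0.44 ± 0.22 (TOTM) and Nr1h3 between −0.37 ± 0.16 (EHO) and 0.04 ± 0.17 (MEHP). None of these passed.

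Genes downstream of these receptors were counted from lists. For this and the later lists, the shares of all genes that passed with EHO were 6.46% higher and 18.3% lower. Of 29 genes of fatty acid oxidation and other PPAR targets, 0 passed limma with DEHP, MEHP or TOTM, and with EHO 4 fell and 0 rose, with a median of −0.17 beside −0.18 over all genes. The 4 were Acaa1b, a peroxisomal thiolase (−0.43 ± 0.15), Pex11a, a peroxisome division factor (−0.62 ± 0.19), Cyp4a8, a fatty acid hydroxylase, and Ucp3, a mitochondrial carrier. Cyp4a8 and Ucp3 were not well above background on any EHO array, so they were at least 1.44-fold and 1.37-fold lower (limma adjusted p = 0.0146 and 0.0308). With EHO 1 and 2 left out 0 of 29 passed. Cyp4a2 had the smallest p of the list with DEHP (−0.44 ± 0.17) and with MEHP (−0.53 ± 0.18, limma adjusted p = 0.430), and neither passed.

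Of 11 LXR targets, 1 passed with MEHP: Scd, the stearoyl-CoA desaturase, was at −1.10 ± 0.20 (limma adjusted p = 0.00841), beside −1.17 ± 0.19 with DEHP (adjusted p = 0.106). With EHO Apoe, which carries lipid in lipoproteins, rose (0.66 ± 0.15) and Mylip, which degrades lipoprotein receptors, passed as lower but was not well above background on any EHO array, so no fold is given. With DEHP and TOTM 0 of 11 passed. For EHO 0 of 11 passed without arrays 1 and 2.

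Among the receptors for hormones and vitamins, Nr3c2 fell with EHO and Rara, Thra and Thrb passed in no comparison with control. Nr3c2 (NM_013131, probe at chr19:32528010-32528068) is the mineralocorticoid receptor. It read −1.43, −1.93, −1.91 and −1.24 in control and −3.62, −2.94, −2.27 and −1.90 with EHO. EHO 4 lay inside the control range, and EHO 1 and 2 were not well above background. The means were −1.63 ± 0.35 and −2.68 ± 0.76, a difference of −1.05 ± 0.29 (n = 4 each, limma adjusted p = 0.0285, exact permutation p = 0.0857). The second probe gave −0.80 ± 0.32 and did not pass (adjusted p = 0.0678). The first probe gave −0.46 ± 0.23 without EHO 1 and 2.

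Thrb, a thyroid hormone receptor, read −2.85, −2.95, −3.02 and −3.02 in control, −2.09, −2.20, −2.72 and −2.40 with MEHP and −3.15, −3.82, −3.90 and −3.32 with TOTM. All MEHP arrays lay above and all TOTM arrays below the control arrays, but only 1 TOTM array was well above background. A second probe of Thrb was not well above background on any array. The differences of 0.54 ± 0.35 with MEHP (limma adjusted p = 0.976) and −0.59 ± 0.32 with TOTM (adjusted p = 0.645) did not pass. Over all genes 10.3% did not overlap between MEHP and control (3.39% higher, 6.89% lower) and 7.23% between TOTM and control (3.86% higher, 3.36% lower), and among receptors 3 (Thrb higher, Hnf4a and Esrrb lower) and 2 (Nr2f6 higher, Thrb lower) of 24 did not. These counts take MEHP 1 and 2 as their mean, and array by array Hnf4a and Esrrb overlapped with control through MEHP 1. Thra, the other thyroid hormone receptor, lay at 0.37 ± 0.27 with DEHP, 0.38 ± 0.27 with TOTM and 0.49 ± 0.27 with EHO, and its lowest readings were 1.08 on control 2 and 0.93 on MEHP 3. Rara, a retinoic acid receptor, stayed within −0.15 and 0.06 of control in all groups. Its SE of 0.13 to 0.14 was the smallest among the receptors.

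The genes that handle these ligands gave the following counts. Of 12 retinoid genes tested with MEHP only Rdh11, a retinal reductase, passed (−0.78 ± 0.16, limma adjusted p = 0.0167). With EHO 3 rose, among them Dhrs3, a retinal reductase (0.53 ± 0.15), and Aldh1a2, which makes retinoic acid (0.91 ± 0.29). Rbp4, the retinol carrier of plasma (−0.39 ± 0.14), and Aldh1a3, which also makes retinoic acid (−1.09 ± 0.29), fell with EHO. Of 8 thyroid hormone genes 2 fell with EHO, Dio3, which inactivates the hormone (−0.87 ± 0.28), and Thrsp, a lipogenic target (−1.17 ± 0.40), and of 4 vitamin D genes 0 passed. With DEHP and TOTM 0 genes of these 3 lists passed limma. For EHO 0 of them passed without arrays 1 and 2.

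The xenobiotic receptors are Nr1i2 (PXR) and Nr1i3 (CAR), which switch on drug-metabolising enzymes in liver. Neither passed in any comparison. Nr1i3 read −1.209, −2.418, −2.115 and −1.499 in control and −4.85, −5.00, −2.03 and −1.80 with EHO. EHO 3 and 4 lay inside the control range, and EHO 1 and 2 were not well above background. The difference of −1.61 ± 0.58 had an adjusted p of 0.0519 (limma), and without EHO 1 and 2 it was −0.11 ± 0.32. A second probe of Nr1i3 was not well above background on any array. Nr1i2 was at −1.04 ± 0.38 with EHO (adjusted p = 0.0536), where 1 of 4 arrays was well above background, and at −0.62 ± 0.38 with TOTM. Of their 6 targets tested 0 passed with DEHP, MEHP or TOTM. With EHO 3 passed as lower (Abcb1b, Abcc2 and Cyp3a18), none of them well above background on an EHO array. The drug exporters Abcb1b and Abcc2 were at least 1.26-fold and 1.09-fold lower. For Cyp3a18 no fold is given, because its bound did not lie below control. With EHO 1 and 2 left out 1 of the 6 passed.

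The clock receptors repress (Nr1d1 and Nr1d2, the REV-ERBs) or activate (Rora) the same sites in the circadian loop. Of the 3 tested, Rora and Nr1d2 fell with EHO and Nr1d1 did not pass with any compound. Rora (probe at chr8:73817595-73817654) read −2.08, −2.80, −2.88 and −2.18 in control and −4.95, −5.05, −2.97 and −3.02 with EHO. All EHO arrays lay below all control arrays, and none of them was well above background. By the bound Rora was at least 1.22-fold lower with EHO (limma adjusted p = 0.0246, exact permutation p = 0.0286). Rora entered the test only through control, where all 4 arrays were well above background (2 with DEHP, 3 with MEHP, 3 with TOTM). Control was also the group with its highest mean, so the call, the bound and the lack of overlap are not independent of the filter. With DEHP Rora read −3.02, −3.26, −3.02 and −3.11, below every control array, with 2 of 4 arrays well above background. The difference of −0.62 ± 0.40 did not pass (limma adjusted p = 0.9999), and the filter bears on this lack of overlap in the same way. In the DEHP comparison 2.93% of all genes did not overlap (1.13% higher, 1.80% lower), and of the receptors 2 of 24 (Rora lower and Nr2f6 higher). The call of Rora was lost without EHO 1 and 2.

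Nr1d2 (NM_147210), whose promoter is printed above with its AGGTCA, read −1.68, −1.16, −2.21 and −1.89 in control and −3.49, −2.80, −2.40 and −2.19 with EHO. EHO 4 lay inside the control range, and EHO 1 and 2 were not well above background. The means were −1.74 ± 0.44 and −2.72 ± 0.57, a difference of −0.99 ± 0.29 (n = 4 each, limma adjusted p = 0.0329, exact permutation p = 0.0571), and −0.56 ± 0.29 without EHO 1 and 2. Nr1d1, its paralogue, was well above background on all 20 arrays and lay between −0.15 ± 0.28 (MEHP) and 0.27 ± 0.26 (TOTM), with 0.09 ± 0.26 for EHO. Of 13 other clock genes 0 passed with DEHP, MEHP or TOTM. With EHO only Clock, the activator of the loop, passed (−0.73 ± 0.26, limma adjusted p = 0.0471), and 0 of 13 did without EHO 1 and 2.

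Of the 9 orphan receptors tested 2 rose and 1 fell with EHO. Nr2f6 (NM_139113, probe at chr16:18535788-18536934), a repressor related to the COUP factors, was the receptor with the tightest EHO values. It read 1.48, 1.36, 1.72 and 1.73 in control and 2.03, 2.06, 2.02 and 1.99 with EHO. Every EHO array lay above every control array and all were well above background. The means were 1.57 ± 0.18 and 2.03 ± 0.03, a difference of 0.45 ± 0.14 (n = 4 each, limma adjusted p = 0.0343, exact permutation p = 0.0286). The difference was 0.43 ± 0.17 without EHO 1 and 2, nearly as large, but did not pass there (adjusted p = 0.251). Under quantile normalization it was 0.31 and did not pass.

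Nr2f6 also lay above every control array with DEHP (1.74, 1.88, 1.85 and 2.05, a difference of 0.31 ± 0.14) and with TOTM (1.76, 1.73, 1.85 and 1.97, a difference of 0.25 ± 0.14). Neither passed (limma adjusted p = 0.9999 and 0.641), and these comparisons share the control arrays. With MEHP it read 1.84, 1.89, 1.18 and 1.75, low on array 3 alone, and differed by 0.02 ± 0.15. In the EHO comparison 13.4% of all genes did not overlap with control (6.41% higher, 7.01% lower), and of the receptors 3 of 24 (Nr2f6 higher, Rora and Rxrg lower).

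Nr2f1 (NM_031130, probe at chr2:5765431-5765490), a COUP factor of mesenchymal cells, read 1.19, 1.87, 1.33 and 1.55 in control and 2.85, 2.21, 1.74 and 1.93 with EHO. EHO 3 lay inside the control range, and all 8 arrays were well above background. The means were 1.48 ± 0.30 and 2.18 ± 0.48, a difference of 0.70 ± 0.25 (n = 4 each, limma adjusted p = 0.0497, exact permutation p = 0.0571), just inside the threshold, and 0.35 ± 0.25 without EHO 1 and 2. A second probe of the gene, at chr2:5774480-5774539, gave −0.20 ± 0.25, the opposite sign, with 1 of 4 EHO arrays well above background.

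Of 8 markers of peritubular and interstitial cells tested with EHO 3 (Nr2f2, Lum and Des) rose and 0 fell, against 6.46% and 18.3% of all genes. Their mean level ran from 1.68 to 2.10 over the EHO arrays and from 1.29 to 1.71 over the control arrays. Of the 8, 0 passed without EHO 1 and 2. The part of these cells in the Nr2f1 value was not tested, and in pooled tissue more cells of a type and more RNA per cell cannot be told apart.

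Nr6a1 (probe at chr3:18536481-18536540) is the germ cell nuclear factor, and its promoter with TGACGTCA is printed above. It read −2.38, −3.31, −2.86 and −2.43 in control, with 3 of 4 arrays well above background, and −4.97, −4.17, −2.84 and −3.21 with EHO, with none. EHO 3 and 4 lay inside the control range. It passed as lower (limma adjusted p = 0.0473, exact permutation p = 0.143) but by at least 1.02-fold only, because no EHO array measured it. Gonocyte markers, beside it, had 1 of 11 lower and 0 higher with EHO, with a mean level of 0.46 to 1.04 over the EHO arrays and 0.91 to 1.13 in control. Their part in the Nr6a1 value was not tested.

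The other orphan receptors did not pass in any comparison with control. Esrra, the estrogen-related receptor that drives mitochondrial genes, lay between −0.01 ± 0.15 (EHO) and 0.16 ± 0.16 (MEHP). Esrrb and Esrrg lay at −0.95 ± 0.39 and −1.32 ± 0.53 with EHO, each with 2 of 4 EHO arrays well above background, and at −0.05 ± 0.23 and 0.06 ± 0.27 without EHO 1 and 2. Hnf4a, a regulator of liver and gut genes, read −1.34, −1.75, −1.78 and −1.69 in control and −1.75, −2.05, −2.10 and −2.27 with MEHP. Its difference with MEHP of −0.45 ± 0.21 did not pass (limma adjusted p = 0.881), and a second probe with 10 spots gave −0.10 ± 0.19. Nr5a2, a relative of the steroidogenic regulator Nr5a1, lay between −0.39 ± 0.17 (EHO) and −0.02 ± 0.17 (DEHP). Nr0b2, a repressor without a DNA-binding domain, lay between −0.36 ± 0.18 (EHO) and −0.10 ± 0.18 (TOTM).

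Targets of these receptors were counted as well. Of 10 mitochondrial targets of the ERRs 2 fell with EHO, Ogdh (−0.93 ± 0.27) and Ckmt1 (−0.53 ± 0.19), and of 6 targets of the bile acid receptor and HNF4 Apoc3 fell (−1.02 ± 0.35). Of 13 immediate early genes Jun (0.50 ± 0.15) and Junb (0.61 ± 0.17) rose and Fos (−1.42 ± 0.43) and Egr3 (−1.28 ± 0.37) fell. With DEHP, MEHP and TOTM 0 genes of these 3 lists passed limma, and without EHO 1 and 2, 0 did with EHO.

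**Figure D4:**
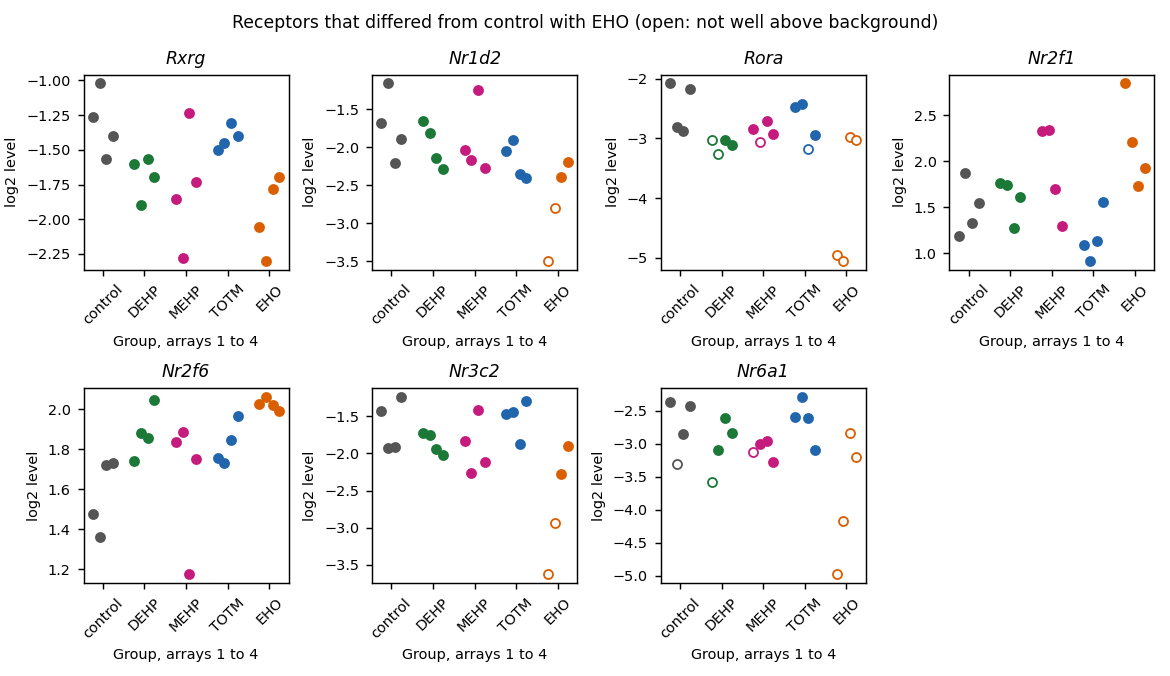
Log2 level on every array of the 7 receptors that differed from control with EHO, by group; open points are not well above background. For Rora, Nr1d2, Nr3c2 and Nr6a1 the lowest 2 points are the open ones of EHO arrays 1 and 2, whereas the 4 EHO points of Nr2f6 lie between 1.99 and 2.06.

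Of the 24 receptors 17 lay below control with EHO over all 4 arrays and 14 over EHO 3 and 4 alone. Nr1i3 and Esrrg, like Ppara, were not well above background on EHO 1 and 2, and on EHO 3 and 4 they lay within the range of the control arrays.

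**Figure D5:**
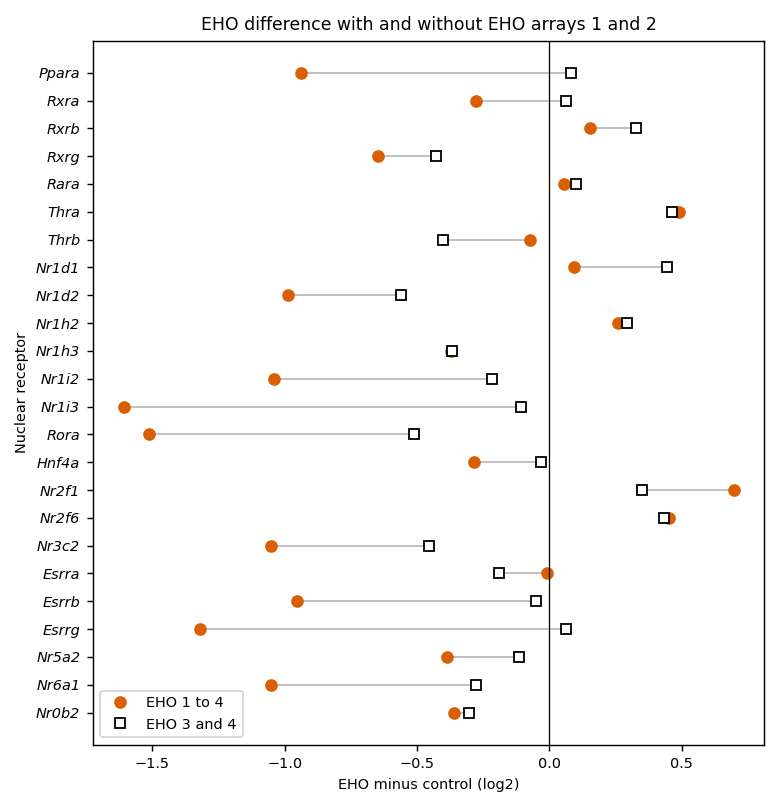
Difference of EHO from control (log2) of each of the 24 receptors over EHO arrays 1 to 4 (filled circles) and over arrays 3 and 4 (open squares), joined by a line. The lines of Nr1i3, Esrrg and Ppara, whose probes were not well above background on EHO 1 and 2, end near 0, and the circle and square of Nr2f6 nearly coincide at 0.45 and 0.43.

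DEHP, MEHP and TOTM are esters of the same branched alcohol, MEHP being the monoester of DEHP and TOTM a triester of a different aromatic acid. They were set against each other and against EHO in 6 pairs, 24 receptors in each. Doses were equal in mg/kg but not in moles, and the days were the same. No receptor differed between MEHP and DEHP, where 1.13% of all 24273 genes did, or between TOTM and DEHP, where 0 genes did. No receptor passed between TOTM and MEHP (1.52% of genes), EHO and DEHP (6.68%) or EHO and MEHP (0.301%). At an unadjusted p under 0.05 in limma, 1 of 24 receptors differed between MEHP and DEHP (5.57% of genes), 0 between TOTM and DEHP (3.02%), 4 between TOTM and MEHP (13.9%), 8 between EHO and DEHP (38.3%), 5 between EHO and MEHP (23.8%) and 9 between EHO and TOTM (46.5%). Between EHO and TOTM 5 of 24 receptors passed (1 higher and 4 lower with EHO), against 21.6% of genes (8.33% higher and 13.3% lower). Nr2f1 was higher with EHO, and Nr3c2, Rxrg, Nr6a1 and Rora were lower.

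Nr2f1 read 1.09, 0.92, 1.14 and 1.56 with TOTM, below every EHO array. The difference of 1.005 ± 0.25 (n = 4 each) had a limma adjusted p of 0.0149 within the pair and of 0.0398 over the 6 pairs together. The second probe of Nr2f1 had the opposite sign, at −0.25 ± 0.25. Nr3c2 read −1.48, −1.45, −1.87 and −1.30 with TOTM, above every EHO array, with a difference of −1.16 ± 0.29 and adjusted p of 0.0161 and 0.0428. These were the 2 that passed over the 6 pairs, by the first probe of each. The second probe of Nr3c2 gave −0.78 ± 0.32 and did not pass (adjusted p = 0.0752 over all probes). Rxrg (−0.54 ± 0.17) had 0.0990 over the 6 pairs, and its second probe did not pass either (−0.56 ± 0.21, adjusted p = 0.0587). Rora and Nr6a1, which no EHO array measured, were at least 1.01-fold and 1.09-fold lower (limma adjusted p over the 6 pairs 0.101 and 0.1004). Nr6a1 entered the test only through TOTM, the group with all 4 arrays well above background and its highest mean. Its call and bound against TOTM are thus not independent of the filter. All 5 calls were lost without EHO 1 and 2. Leaving out single arrays moved the count from 5 to 1 (TOTM 2 or EHO 1), 2 (TOTM 1, TOTM 3 or EHO 2), 3 (DEHP 2 or TOTM 4), 11 (EHO 3) and 9 (EHO 4). These counts too are given without the share of all genes and show only that the calls depend on single arrays.

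Rxra and Thrb were the receptors on which the esters lay farthest apart, and neither passed. Rxra read −2.23, −2.09, −1.99 and −1.90 with DEHP and −1.92, −2.02, −2.17 and −2.12 with TOTM, above every MEHP array. The difference between MEHP and DEHP was −0.63 ± 0.21 (95% interval −1.07 to −0.19, limma adjusted p = 0.362) and that between TOTM and MEHP 0.62 ± 0.21 (0.18 to 1.06, adjusted p = 0.187). Thrb was at −1.12 ± 0.35 between TOTM and MEHP (−1.86 to −0.39, adjusted p = 0.144), with 1 of 4 TOTM arrays well above background. For Ppara the interval of the difference was −1.32 to 0.56 between MEHP and DEHP, which leaves room for more than a 2-fold difference. The median half-width of the 95% interval over the 24 receptors was 0.58 for MEHP against DEHP and 0.54 for TOTM against DEHP. Misses of the threshold at that width do not show that the esters act alike.

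The mean level of Leydig cell markers ran from 2.05 to 2.46 over the DEHP arrays and from 1.30 to 3.04 over the MEHP arrays, against 2.93 to 3.18 in control, 2.83 to 3.16 with TOTM and 2.32 to 2.86 with EHO. Of 11 tested 0 passed limma with DEHP, MEHP and TOTM, and 1 was lower with EHO. Their part in the receptor values was not tested. The MEHP arrays spread widely for receptors also: Thra, Nr1h2, Rxrb and Nr2f6 read lowest on MEHP 3, the array close to control 2.

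In the authors' deposited table, which lists probes with p under 0.01 for each compound by a test that is not stated, 1 receptor was listed for DEHP, 5 for EHO, 4 for MEHP and none for TOTM. The same blocks list 2.45%, 10.3%, 9.33% and 8.04% of all probes. For EHO the authors' deposited table gives Nr2f6 (1.35), Nr2f1 (1.45), Nr1d1 (1.68) and Hnf4a (1.46) as higher and Nr0b2 (−1.40) as lower, as signed folds. Its Hnf4a value is for the second probe, which here gave −0.07 ± 0.18, the opposite sign (limma adjusted p = 0.776 over all probes). Nr1d1, at 0.09 ± 0.26 here, and Nr0b2 did not pass here either. For MEHP the authors' deposited table gives Nr2f1 (1.7) and Thrb (1.9) as higher and Rxrg (−1.5) and Nr0b2 (−1.5) as lower, and for DEHP it gives Rora (−1.41). None of these passed here with that compound. With MEHP Nr2f1 read 2.325, 2.335, 1.701 and 1.299, and Nr0b2 read 2.339, 2.527, 3.259 and 2.903. For both, MEHP 1 and 2, which enter here as 1 mean, lay outside the control range and MEHP 3 and 4 inside it. Of the 7 receptors called here with EHO, Nr2f6 and Nr2f1 were in the EHO block of the authors' deposited table, and the 5 lower ones were not in that block. That block lists 2813 probes as higher and 1397 as lower, while here 1547 genes passed as higher and 4389 as lower. The thresholds also differ: p under 0.01 per probe there, and an adjusted p under 0.05 per gene here. Why the splits differ was not tested.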

How the data were processed

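The deposited intensity of each spot is the background-subtracted processed signal of a rat 1-colour array, read by Agilent Feature Extraction 9.5.3.1 per the file headers, and probe coordinates there are on rn4. The submitters' processing notes name version 9.5. The authors' deposited table gives a signed fold change, treated here as a score, and a p-value per probe and compound, and the test behind them is not given in the sources used here.

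Outlier spots were set aside. Values were taken to log2, means were formed over repeats of a probe, and each array was shifted by the 75th percentile of its non-control spots. A probe was kept if some group had it well above background on all its arrays (28129 of 41012), and the probe with the highest mean stood for a gene. Group means of the 19 samples were compared by moderated linear models (limma 3.58.1, R 4.3.3), all groups sharing the variance. P-values were adjusted by Benjamini-Hochberg over all genes within a comparison, and for pairs of compounds also over the 6 pairs. Permutation tests were exact and two-sided. For a probe not well above background in a group, a fold is a lower bound: the mean of the brighter group against the mean of the higher of the dim value and the lowest signal well above background on its array. These bounds were formed under the 75th percentile scaling only. For EHO, scaling to the array median moved the median of all genes from −0.18 to 0.35, so a bound need not hold there. The number of arrays limits the precision.

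All members are named, and of each gene list the called genes up to 4 a comparison, in a few places with 1 that did not pass. The values of 1 list gene are not reported here. The members and lists were chosen with earlier results of these data known. Accessions of 10768 probes matched RefSeq symbols. Exon or UTR positions of probes were not assigned, since no rn4 annotation was used here. The fit was tested on simulated data. Same-numbered arrays of different groups did not deviate together (40 pairs, r from −0.68 to 0.49, 16 over 0.1), so numbers were not used as pairs. Alternatives were normexp (offset 50) with quantile normalization, quantile normalization, other scalings, filters and variance models, all probes, arrays weighted or left out, a replicate block and a 2-fold threshold. Added after seeing the data were the percentile without outlier spots and dim values at the array floor.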

Additional observations from a re-analysis of the deposited data

Results flagged for a closer look

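Of 96 groups of 4 arrays, 1 for each of the 24 receptors in each of 4 groups (MEHP has 3 samples and was not examined), 2 held an array that stood apart from the other 3 beyond the 95% critical value of Dixon's test, and chance gives about 1 in 20. Rxra read −2.63 on control 2, where the other control arrays read between −2.07 and −1.96. Esrrb read −2.28 on DEHP 1, where the other DEHP arrays read between −2.72 and −2.70.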

How the results depend on the processing

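Over 39 alternatives no receptor passed with DEHP or TOTM against control, or between TOTM and DEHP. For EHO against control (7 receptors, 5936 genes) the number passing was 2 with quantile normalization, 2 with normexp and quantile normalization, 2 of 12 with the filter on all 20 arrays (2163 genes), 3 at 2-fold or more (2896 genes), 4 with dim spots at the array floor, and 0 with array weights (703 genes), when only EHO and control entered the fit (3 genes) or without EHO 1 and 2 (223 genes). No filter gave 10491 genes, and MEHP 3 and 4 left out 3270. Leaving out single arrays gave 0 to 13. For EHO against TOTM (5 receptors) it was 1 with normexp and quantile normalization, 2 with the filter on all 20 arrays, 3 with dim spots at the floor or without MEHP 3 and 4, and 0 with array weights, the 2 groups alone or without EHO 1 and 2. Leaving out single arrays gave 1 to 11 there, 0 to 10 for EHO against DEHP and 0 to 4 for EHO against MEHP. With array weights 7 receptors (3753 genes) passed for MEHP against control, 2 for MEHP against DEHP and 9 for TOTM against MEHP. Where no number of all genes is given beside a count here, the count cannot be set against its background. TOTM against MEHP gave 1 with MEHP 1 and 2 separate or without EHO 1 and 2. With the replicate number as a block 3 receptors passed for EHO against control (2069 genes) and 2 for EHO against TOTM (2809 genes). Those numbers do not pair the arrays, and the block changed the number of receptors in no other comparison. The cause was not tested. Signal over background limits the receptors that EHO 1 and 2 did not measure.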

Other observations

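Coregulators, the proteins that receptors recruit to activate or silence chromatin, were counted from a list. Of 20 tested 4 rose and 1 fell with EHO, against 6.46% and 18.3% of all genes. The median difference was 0.25 beside −0.18 over all genes, and 0 passed limma with DEHP, MEHP or TOTM. Ncor1, the corepressor of unliganded thyroid and retinoid receptors, rose by 0.65 ± 0.13 (limma adjusted p = 0.00950), Hdac3, its histone deacetylase, by 0.48 ± 0.11, Tbl1x, a further subunit of that complex, by 0.71 ± 0.17, and Crebbp, an acetyltransferase, by 0.38 ± 0.12. Pcaf, another acetyltransferase, was at −1.61 ± 0.47 with 2 of 4 EHO arrays well above background. Without EHO 1 and 2, 0 of 20 passed and the median was 0.22.

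Of 7 other nuclear receptors tested with EHO, Nr2f2, the second COUP factor, rose (0.58 ± 0.18) and Rarb, a retinoic acid receptor, passed as lower by at least 1.27-fold. Nr2f2 was at −1.02 ± 0.18 with TOTM and missed the threshold (limma adjusted p = 0.0551). Without EHO 1 and 2, 0 of the 7 passed with EHO.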
